A study of Mus musculus with 12 samples.

Results

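Aminoacyl-tRNA synthetases are the enzymes that load each tRNA with its amino acid before translation. The cytosolic enzymes serve the ribosomes that translate nuclear messages, and a separate set, encoded in the nucleus and imported, serves the ribosomes of mitochondria. Many of the cytosolic genes are known in mammalian cells as targets of ATF4, the transcription factor made when the kinases of the stress response slow translation. Tunicamycin (TM) blocks N-linked glycosylation and so causes stress of the endoplasmic reticulum (ER), and ATF6α, the product of the gene Atf6, is an ER membrane protein that is cut upon such stress to release a transcription factor for ER chaperone genes.

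The synthetases described here were the genes whose symbol on the array is an amino acid's letter followed by ars, with or without a final 1 or 2, together with Farsa, Farsb and Fars2. A final 2 marks a mitochondrial enzyme. Of 18193 genes with a probe set of their own, 32 were synthetases of this kind, 18 cytosolic and 14 mitochondrial. Where a gene had several probe sets, the brightest on average across the 12 arrays stood for it. Gars and Kars, whose genes each serve both compartments, were kept with the cytosolic group. The symbol pattern does not take Eprs, Ears2, Pars2 and Tarsl2, which are described after the members.

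RNA came from liver homogenates of 4 groups of 3 mice: wild-type (Atf6a +/+) given vehicle, wild-type given TM, Atf6a-/- given vehicle and Atf6a-/- given TM. TM was injected into the peritoneum at 1 mg/kg in 150 mM dextrose, the vehicle was dextrose alone, and livers were collected 34 h later. The labels are at odds on the time, since a source field gives 8 h; the 34 h of the titles and the extraction protocol is used here. Ages and sexes were mixed and are not given for single animals, and the mice were fasted before sacrifice. How the Atf6a allele was made is not given in the sources used here. Levels are on the log2 scale as normalized by the study, so a difference of 1 is a doubling. A gene was called higher or lower when limma's adjusted p was under 0.05 and the difference was over 1.5-fold, and each ± beside a difference is its standard error. In whole liver, fewer cells of a type and less RNA per cell cannot be told apart.

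The targeted gene, Atf6, read 8.54, 8.42 and 8.49 in the wild-type vehicle mice and 6.88, 6.85 and 6.60 in the Atf6a-/- vehicle mice. These groups did not overlap, and the difference was -1.71 ± 0.15 (limma, adjusted p = 0.0061). After TM, Atf6 read 9.30, 9.72 and 9.49 in wild-type mice and 9.60, 9.81 and 9.23 in Atf6a-/- mice, and these groups overlapped (difference 0.04 ± 0.15, adjusted p = 0.922). Whether the probes lie in the deleted part of the gene is not given in the sources used here, so the genotype of the TM mice rests on their labels. Wild-type TM animal 2 stood apart from the other wild-type TM mice on the first principal component (29.5 against -12.9 and -11.9, where the Atf6a-/- TM mice lay at 113.6 to 119.9), and calls that changed without it are given both ways. The highest array median, 4.71, was used as a floor, and among the synthetases only Mars2 lay under it in every group.

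The main pattern was a rise of nearly the whole cytosolic set in Atf6a-/- livers after TM. In Atf6a-/- mice 16 of 18 cytosolic genes rose, against 15.2% of all genes tested, with a median difference of 1.61 where the median of all genes was -0.01. In wild-type mice 5 of 18 rose, against 3.45% of all genes, with a median of 0.49, and 0 fell, against 3.86%. Without wild-type TM animal 2 that median was 0.23. That wild-type count depended on the processing, at 0 by the methods' t-test after adjustment, 2 in a fit on the 2 wild-type groups alone and 12 after a shift by spike-ins. Among all 45037 probe sets these settings called 1, 892 and 4810 higher, against 1179 as reported. Without Gars and Kars, 14 of the 16 other cytosolic genes rose in Atf6a-/- mice (median 1.52) and 3 of 16 in wild-type mice (median 0.45). The animals of the vehicle and TM groups did not overlap, with TM higher, for 16 of 18 cytosolic genes in Atf6a-/- mice (24.1% of all genes) and for 10 of 18 in wild-type mice (11.8% of all genes). The mitochondrial set gave no call in wild-type mice, where 6 of its 14 genes had an unadjusted limma p under 0.05. The share of all genes under that limit in wild-type mice was not counted, so the 6 are not read as a result. The adjusted t-test called only 1 of all 45037 probe sets there, so its 0 in either set is no result about the synthetases. In Atf6a-/- mice 3 mitochondrial genes rose and 2 fell, with a median of 0.29, where 15.2% of all genes rose and 12.8% fell. Without overlap, 7 mitochondrial genes were higher and 4 lower in Atf6a-/- mice (24.1% and 23.7% of all genes), and 2 were higher and 4 lower in wild-type mice (11.8% and 15.0%). The wild-type and Atf6a-/- responses have separate vehicle controls.

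**Figure D1:**
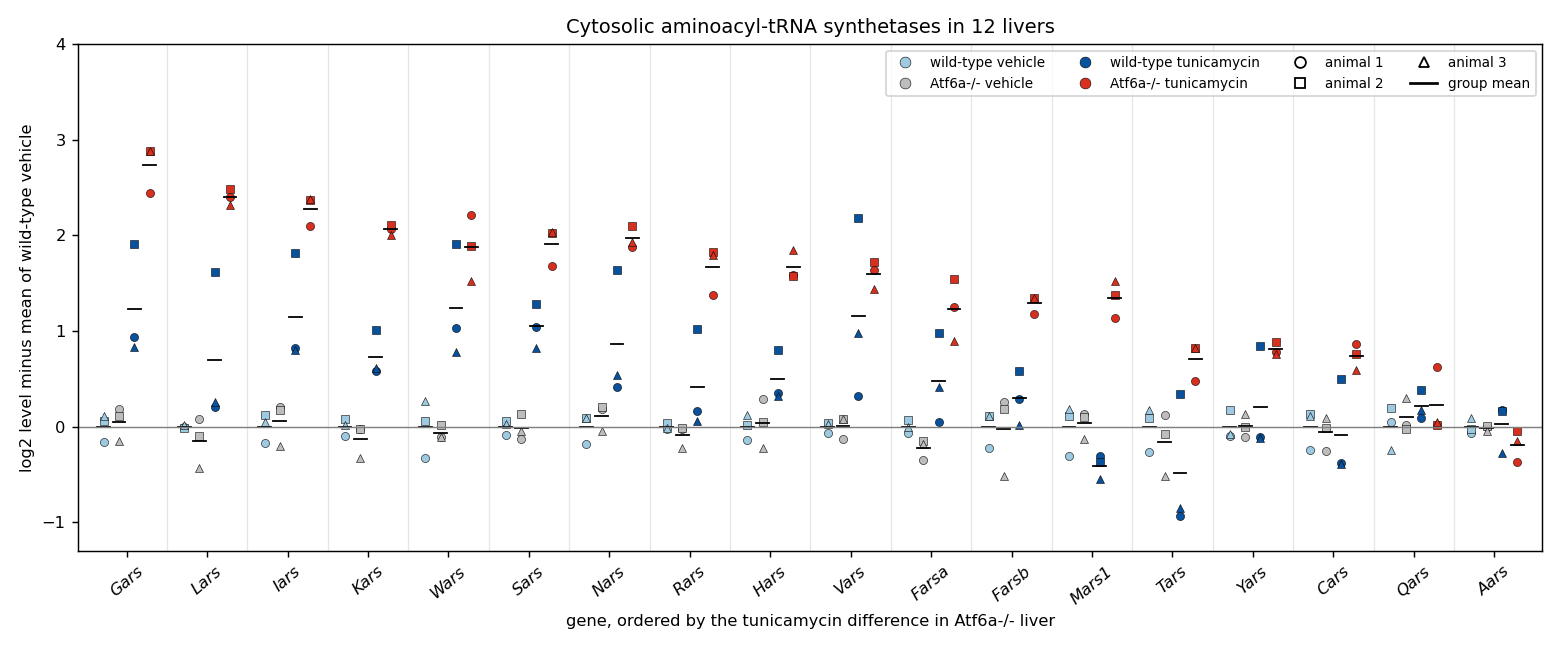
Level of each of the 18 cytosolic synthetases in each of 12 mice, as log2 level minus the mean of the wild-type vehicle mice (points: animals; bars: group means). In 16 genes the 3 Atf6a-/- TM animals (red) lie above the Atf6a-/- vehicle animals; Aars and Qars, at the right, are the exceptions, and animal 2 is often the highest of the wild-type TM mice (dark blue squares).

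Before the levels, the DNA at some of these genes is shown, because a known feature of ATF4 target genes is the composite element at which a C/EBP and an ATF factor can pair. Windows of 300 bases, 250 before and 50 after the annotated start, were taken from RefSeq (GRCm38.p6), and 24 of the 32 synthetases had one, 11 cytosolic and 13 mitochondrial. The core of the composite element, TGATGNAA, was sought on both strands. It was found at 5 of the 11 cytosolic genes, Aars, Gars, Iars, Tars and Yars, and at 0 of the 13 mitochondrial genes. Among all 32851 windows 3.97% held it, and 4.51% of the 27025 genes with a window did. For Gars, Iars, Tars and Yars the stretches of 30 bases around the match are printed so that the core reads from left to right, with the core in capitals.
Gars: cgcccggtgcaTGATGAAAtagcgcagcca
Iars: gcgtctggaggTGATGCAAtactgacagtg
Tars: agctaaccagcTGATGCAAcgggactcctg
Yars: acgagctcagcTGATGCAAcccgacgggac
In Yars the core lies on the strand of the gene, and in Gars, Iars and Tars on the opposite strand.

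The Gars stretch is chr6:55037960-55037989 on the minus strand, with the core at position -30, counted along the gene from its start with no position 0. The Iars stretch is chr13:49682126-49682155 on the minus strand, with the core at position 8. The Tars stretch is chr15:11399655-11399684 on the plus strand, with the core at position -15. The Yars stretch is chr4:129189895-129189924 on the plus strand, with the core at position 4. A match to these letters is a description of the sequence and not a measured binding site.

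Matches to 3 other motifs were counted in the same windows. The CRE, TGACGTCA, was in none of the 24 synthetase windows, and in 1.79% of all windows. The CCAAT box, CCAAT on either strand, was in the windows of 7 of 11 cytosolic and 5 of 13 mitochondrial genes and in 37.4% of all windows. The palindromic core of the site of NRF1, a factor of nuclear genes for mitochondrial proteins, was in 3 cytosolic genes (Farsb, Kars and Tars) and 2 mitochondrial genes (Iars2 and Mars2), and in 6.23% of all windows. The 250 bases before the start are printed for Tars, which holds the composite core, and for Tars2, its mitochondrial partner, which does not. Capitals mark matches to any of the 4 motifs.
Tars: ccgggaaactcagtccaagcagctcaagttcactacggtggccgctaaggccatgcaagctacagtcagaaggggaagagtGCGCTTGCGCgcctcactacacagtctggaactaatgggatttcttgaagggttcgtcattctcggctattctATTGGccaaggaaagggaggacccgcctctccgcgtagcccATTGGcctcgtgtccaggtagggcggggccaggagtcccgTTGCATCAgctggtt
Tars2: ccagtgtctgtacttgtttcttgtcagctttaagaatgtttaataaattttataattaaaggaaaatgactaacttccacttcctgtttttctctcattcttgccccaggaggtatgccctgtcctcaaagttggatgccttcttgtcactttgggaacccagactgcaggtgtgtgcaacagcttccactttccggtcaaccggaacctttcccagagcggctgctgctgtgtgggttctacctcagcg
These are chr15:11399659-11399908 on the minus strand and chr3:95754978-95755227 on the minus strand. Tars2 held no match before its start and a single CCAAT box after it.

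The enzymes of the multisynthetase complex, a cytosolic particle that holds several synthetases together, gave some of the clearest values. Lars, the leucyl enzyme, which in mammalian cells also reports leucine to the mTORC1 pathway, read 8.12, 8.11 and 8.14 in wild-type vehicle, 8.33, 9.74 and 8.39 in wild-type TM, 8.20, 8.02 and 7.69 in Atf6a-/- vehicle and 10.52, 10.60 and 10.44 in Atf6a-/- TM mice. All 3 Atf6a-/- TM livers were above every other liver, and in wild-type TM only animal 2 was more than 1 unit above vehicle. Lars rose 5.85-fold in Atf6a-/- mice (2.55 ± 0.29, limma, adjusted p = 3.275e-05). Its wild-type difference, 0.70 ± 0.29, was not called (adjusted p = 0.225), and was 0.24 without animal 2.

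Kars, the lysyl enzyme, is made from a single gene for cytosol and mitochondria. It read 8.77, 8.94 and 8.89 in wild-type vehicle, 9.45, 9.88 and 9.48 in wild-type TM, 8.84, 8.84 and 8.54 in Atf6a-/- vehicle and 10.94, 10.98 and 10.87 in Atf6a-/- TM mice. The treated groups overlapped neither their vehicle groups nor each other. Kars rose in both genotypes, by 0.73 ± 0.13 (1.66-fold, adjusted p = 0.00436) in wild-type and by 2.19 ± 0.13 (4.56-fold, adjusted p = 1.872e-07, limma) in Atf6a-/- mice.

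Iars, the isoleucyl enzyme, read 8.11, 8.40 and 8.32 in wild-type vehicle, 9.10, 10.09 and 9.08 in wild-type TM, 8.48, 8.45 and 8.08 in Atf6a-/- vehicle and 10.37, 10.64 and 10.66 in Atf6a-/- TM mice. As for Kars, the treated groups overlapped neither vehicle nor each other. Iars rose by 1.15 ± 0.23 in wild-type and 2.22 ± 0.23 in Atf6a-/- mice (limma, adjusted p = 0.0115 and 1.636e-05). Rars, the arginyl enzyme, read 8.08, 8.14 and 8.09, then 8.27, 9.13 and 8.16, then 8.07, 8.09 and 7.88, then 9.49, 9.92 and 9.90 in the same 4 groups. Apart from animal 2, wild-type TM mice were close to vehicle, and the 3 Atf6a-/- TM mice were above all others. Rars rose 3.38-fold in Atf6a-/- mice (adjusted p = 5.062e-05), and its wild-type difference was 0.41 ± 0.21 (adjusted p = 0.350, limma), or 0.11 without animal 2.

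Mars1, the methionyl enzyme, had a different order. It read 8.79, 9.21 and 9.28 in wild-type vehicle, 8.79, 8.72 and 8.54 in wild-type TM, 9.23, 9.20 and 8.96 in Atf6a-/- vehicle and 10.23, 10.47 and 10.61 in Atf6a-/- TM mice. The 3 wild-type TM livers were the lowest or level with the lowest vehicle liver, and the 3 Atf6a-/- TM livers were the highest of all. The wild-type difference was -0.41 ± 0.15 and was not called (adjusted p = 0.142). Mars1 rose 2.48-fold in Atf6a-/- mice (adjusted p = 2.691e-05, limma), and here wild-type TM animal 2 did not stand above its group.

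Qars, the glutaminyl enzyme, was the member of the complex without a call. Its representative probe set read 9.93, 10.06 and 9.62 in wild-type vehicle, 9.96, 10.26 and 10.05 in wild-type TM, 9.89, 9.85 and 10.17 in Atf6a-/- vehicle and 10.50, 9.89 and 9.92 in Atf6a-/- TM mice. All 4 groups overlapped, and the Atf6a-/- difference was 0.13 ± 0.17 (limma, adjusted p = 0.655). Other Qars probe sets gave another answer. One of them rose in both genotypes, by 0.78 ± 0.12 in wild-type mice (adjusted p = 0.00226) and 1.22 ± 0.12 in Atf6a-/- mice (adjusted p = 1.071e-05), and another rose by 0.82 ± 0.15 in Atf6a-/- mice (adjusted p = 0.00125). The lack of a call for Qars therefore holds for the probe set that the rule chose and not for these. Taken as a list, the 6 measured enzymes of the complex had a median of 1.97 in Atf6a-/- mice, with 5 called, and the 12 free cytosolic genes a median of 1.52, with 11 called.

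Among the free enzymes, Gars, the glycyl enzyme of cytosol and mitochondria, had the largest difference of all 32 genes in Atf6a-/- mice. It read 8.05, 8.27 and 8.32 in wild-type vehicle, 9.15, 10.12 and 9.04 in wild-type TM, 8.40, 8.32 and 8.07 in Atf6a-/- vehicle and 10.66, 11.09 and 11.09 in Atf6a-/- TM mice. The lowest Atf6a-/- TM liver was above the highest wild-type TM liver, and both treated groups were above vehicle. Gars rose by 1.23 ± 0.24 in wild-type (2.34-fold, adjusted p = 0.00937) and by 2.68 ± 0.24 in Atf6a-/- mice (6.42-fold, adjusted p = 4.899e-06, limma).

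Sars, the seryl enzyme, read 8.95, 9.09 and 9.06, then 10.08, 10.32 and 9.86, then 8.91, 9.17 and 8.99, then 10.71, 11.06 and 11.07 in the groups in the same order. The 3 wild-type TM mice were close together and clear of vehicle, with animal 2 the highest of them. Sars had the smallest adjusted p of the wild-type rises, 0.000668 (limma), with a difference of 1.05 ± 0.14, and rose by 1.93 ± 0.14 in Atf6a-/- mice (adjusted p = 7.655e-07).

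Wars, the tryptophanyl enzyme, which is also known to be induced by interferon-γ, read 6.99, 7.38 and 7.58 in wild-type vehicle, 8.35, 9.22 and 8.10 in wild-type TM, 7.21, 7.33 and 7.21 in Atf6a-/- vehicle and 9.53, 9.21 and 8.83 in Atf6a-/- TM mice. Both treated groups were above vehicle and overlapped each other. Wars rose by 1.24 ± 0.26 in wild-type mice (2.36-fold, adjusted p = 0.0142) and by 1.94 ± 0.26 in Atf6a-/- mice (3.84-fold, adjusted p = 0.000118, limma). Vars, the valyl enzyme, read 7.75, 7.86 and 7.85, then 8.14, 10.00 and 8.80, then 7.69, 7.90 and 7.90, then 9.45, 9.54 and 9.25. Wild-type TM animal 2 was above every Atf6a-/- liver, while its group mates were below the Atf6a-/- TM livers. The wild-type difference, 1.16 ± 0.33, was not called (adjusted p = 0.0624) and was 0.65 without animal 2, and the Atf6a-/- rise was 3.00-fold (adjusted p = 0.00304, limma).

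Nars, the asparaginyl enzyme, read 10.29, 10.56 and 10.56 in wild-type vehicle, 10.88, 12.10 and 11.0 in wild-type TM, 10.66, 10.68 and 10.43 in Atf6a-/- vehicle and 12.34, 12.57 and 12.40 in Atf6a-/- TM mice. Hars, the histidyl enzyme, read 8.44, 8.59 and 8.69, then 8.93, 9.38 and 8.90, then 8.86, 8.62 and 8.35, then 10.16, 10.14 and 10.42. For both, treated and vehicle groups were apart in each genotype, but the wild-type differences, 0.86 ± 0.25 and 0.49 ± 0.16, were not called (limma, adjusted p = 0.0662 and 0.0959), and were 0.47 and 0.34 without animal 2. In Atf6a-/- mice Nars rose 3.61-fold and Hars 3.09-fold (adjusted p = 0.000119 and 8.93e-06).

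Farsa encodes the α subunit of the phenylalanyl enzyme and Farsb the β subunit. Farsa read 7.02, 7.15 and 7.08 in wild-type vehicle, 7.13, 8.05 and 7.5 in wild-type TM, 6.73, 6.93 and 6.90 in Atf6a-/- vehicle and 8.34, 8.62 and 7.97 in Atf6a-/- TM mice. The treated groups overlapped through wild-type animal 2 and Atf6a-/- animal 3, and the wild-type difference of 0.48 ± 0.21 was 0.23 without animal 2. On their representative probe sets Farsa rose 2.74-fold and Farsb 2.48-fold in Atf6a-/- mice (limma, adjusted p = 0.000185 and 0.000306). The difference between the subunits was not tested. Farsa had 4 probe sets, and its Atf6a-/- call was lost with their mean, while that of Farsb was kept.

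The remaining called genes, Cars, Tars and Yars, for the cysteinyl, threonyl and tyrosyl enzymes, had differences of 0.79 to 0.86 in Atf6a-/- and -0.48 to 0.21 in wild-type mice. The Atf6a-/- call of Tars (adjusted p = 0.0453, limma) was lost under 12 of 24 alternatives, 8 of them fits that left out 1 animal, that of Cars under 4 and that of Yars under 1, the shift by Btf3 and Ppia. A further Cars probe set was at 0.02 ± 0.15 and was not called. Tars was chosen for display after its values were seen. It read 9.23, 9.59 and 9.67 in wild-type vehicle, 8.57, 9.84 and 8.64 in wild-type TM, 9.62, 9.42 and 8.98 in Atf6a-/- vehicle and 9.98, 10.32 and 10.32 in Atf6a-/- TM mice. Wild-type TM animals 1 and 3 were below all vehicle mice and animal 2 above them, so that the group spanned the vehicle levels. Without animal 2 the wild-type difference of Tars was -0.89 (adjusted p = 0.0205) against -0.48 ± 0.29 with it (adjusted p = 0.449, limma).

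Aars, the alanyl enzyme, was, with Qars, one of the 2 cytosolic genes not called in Atf6a-/- mice, and its window held the composite core. It read 10.45, 10.49 and 10.61 in wild-type vehicle, 10.69, 10.68 and 10.24 in wild-type TM, 10.51, 10.53 and 10.47 in Atf6a-/- vehicle and 10.14, 10.47 and 10.36 in Atf6a-/- TM mice. The wild-type groups overlapped, and each Atf6a-/- TM mouse lay just under all Atf6a-/- vehicle mice. The differences were 0.02 ± 0.13 in wild-type and -0.18 ± 0.13 in Atf6a-/- mice (limma, adjusted p = 0.961 and 0.362). A further Aars probe set gave 0.21 ± 0.14 and 0.16 ± 0.14, which were not called either.

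Of the 5 genes with the composite core, Gars and Iars rose in both genotypes, Tars and Yars were called in Atf6a-/- mice, with the losses given above, and not in wild-type mice, and Aars in neither. The difference between the responses of the genotypes was itself not called for Tars (adjusted p = 0.0616) or Yars (adjusted p = 0.285, limma). Of the 6 cytosolic genes whose window lacked it, Farsa, Farsb, Kars, Mars1 and Sars rose in Atf6a-/- mice, and Qars did not on its representative probe set. By catalytic fold, 8 of 9 class I and 8 of 9 class II cytosolic genes rose in Atf6a-/- mice, with medians of 1.59 and 1.63.

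The mitochondrial enzymes moved less and in both directions. Tars2, the mitochondrial threonyl enzyme, read 7.61, 7.63 and 7.74 in wild-type vehicle, 7.34, 7.62 and 7.41 in wild-type TM, 7.37, 7.56 and 7.45 in Atf6a-/- vehicle and 8.54, 8.58 and 8.35 in Atf6a-/- TM mice. The 3 Atf6a-/- TM livers stood above all 9 others, which lay between 7.34 and 7.74. Tars2 rose 2.05-fold in Atf6a-/- mice (1.03 ± 0.10, adjusted p = 1.139e-05), and its wild-type difference was -0.20 ± 0.10 (adjusted p = 0.343, limma). A further probe set of Tars2 rose by 0.93 ± 0.18 in Atf6a-/- mice (adjusted p = 0.00152).

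Wars2, the mitochondrial tryptophanyl enzyme, read 5.11, 5.38 and 5.36, then 5.67, 5.60 and 5.60, then 5.24, 5.54 and 5.38, then 6.59, 6.17 and 6.04 in the groups in the same order. Wild-type TM mice lay between vehicle and Atf6a-/- TM mice without overlapping either. The Atf6a-/- rise was 1.83-fold (adjusted p = 0.000429), and the wild-type difference was 0.34 ± 0.14 (adjusted p = 0.214, limma). Yars2, the mitochondrial tyrosyl enzyme, read 6.62, 7.02 and 6.91, then 6.71, 7.42 and 6.60, then 6.65, 6.90 and 6.38, then 7.40, 7.62 and 7.41. Wild-type TM animal 2 was level with the Atf6a-/- TM mice and its group mates with vehicle. Yars2 rose 1.78-fold in Atf6a-/- mice (adjusted p = 0.00824, limma). When arrays were shifted to equal levels of the study's reference genes Btf3 and Ppia, the rises of Tars2, Wars2 and Yars2 were not called (0.52, 0.36 and 0.32).

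Aars2 and Hars2, the mitochondrial alanyl and histidyl enzymes, fell in Atf6a-/- mice. Aars2 read 6.86, 7.03 and 7.03, then 6.75, 6.48 and 6.86, then 6.90, 7.39 and 7.09, then 6.35, 6.25 and 6.30. Hars2 read 6.87, 7.01 and 7.14, then 6.48, 6.61 and 6.44, then 7.03, 6.96 and 7.05, then 6.17, 6.58 and 5.93. Both were lower in all 3 Atf6a-/- TM mice than in any vehicle mouse, by 0.83 ± 0.13 for Aars2 and 0.79 ± 0.14 for Hars2 against Atf6a-/- vehicle (limma, adjusted p = 0.000433 and 0.00106). The wild-type differences, -0.28 ± 0.13 and -0.50 ± 0.14, were not called (limma, adjusted p = 0.303 and 0.0626), but for Hars2 the wild-type groups were apart too. For neither gene was the difference between the responses of the genotypes called (limma, adjusted p = 0.092 and 0.481). Neither Atf6a-/- fall was called when arrays were shifted to equal levels of the hybridisation spike-ins (differences -0.35 and -0.31). Hars2 lies next to Hars on chromosome 18, with 0 annotated genes between them and a gap of -4 bases, so that their annotated ends overlap. The neighbours had differences of opposite sign in Atf6a-/- mice (-0.79 and 1.63).

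Vars2 and Fars2, the mitochondrial valyl and phenylalanyl enzymes, were not called in any comparison. Vars2 read 7.41, 7.25 and 7.31, then 7.04, 7.29 and 7.19, then 7.36, 7.28 and 7.51, then 7.23, 7.13 and 7.07. Fars2 read 9.13, 9.14 and 9.04, then 9.19, 9.0 and 9.16, then 8.96, 9.21 and 9.16, then 9.21, 8.77 and 8.84. Fars2 overlapped between vehicle and TM in each genotype, Vars2 in wild-type mice only, and their differences in Atf6a-/- mice were -0.24 ± 0.10 and -0.17 ± 0.12 (limma, adjusted p = 0.106 and 0.360). The 7 other mitochondrial genes, Cars2, Iars2, Lars2, Mars2, Nars2, Rars2 and Sars2, were not called, with Atf6a-/- differences from -0.58 for Lars2 to 0.61 for Sars2. Lars2 missed only the fold limit in Atf6a-/- mice, at 1.49-fold (limma, adjusted p = 0.00274), with its groups apart. Rars2 missed only that limit for the difference between the responses of the genotypes (1.496-fold, adjusted p = 0.0324) and for the genotypes after TM (1.289-fold, adjusted p = 0.0348, limma).

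**Figure D2:**
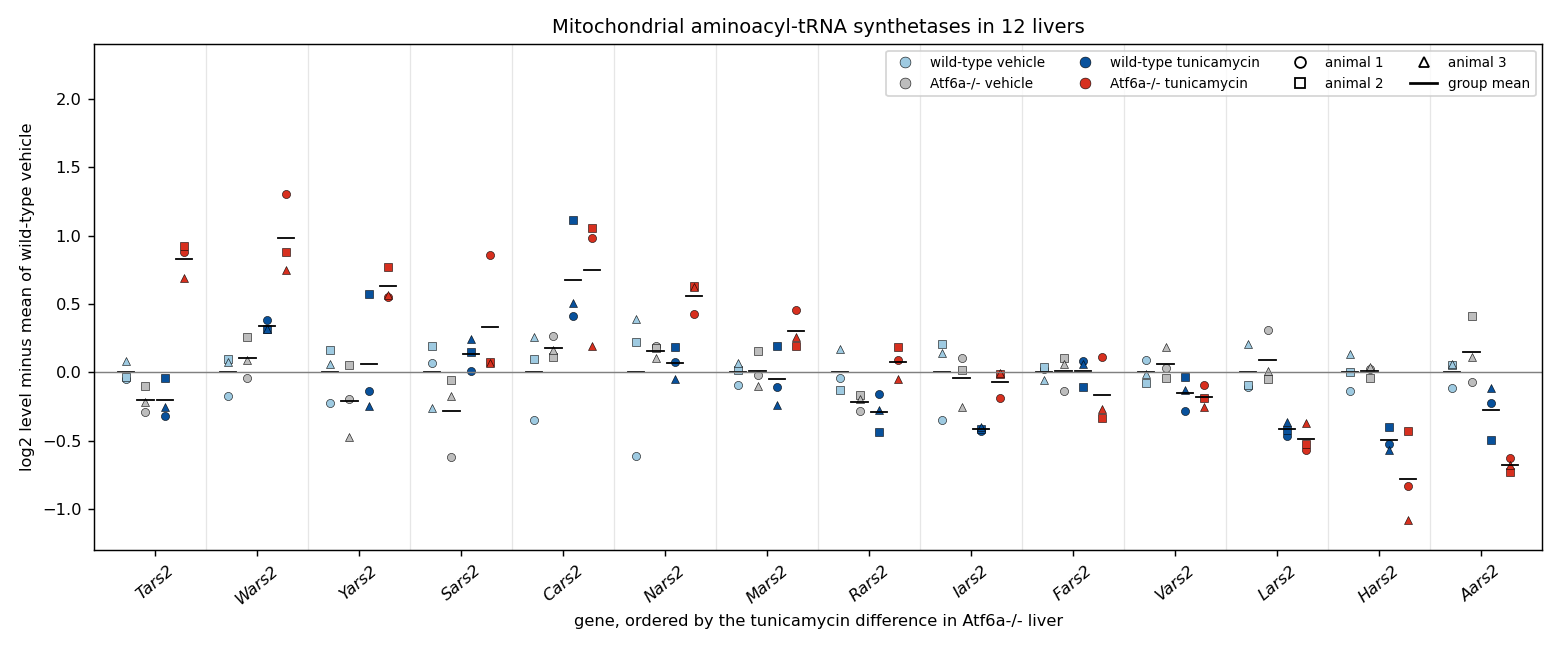
Level of each of the 14 mitochondrial synthetases in each of 12 mice, as log2 level minus the mean of the wild-type vehicle mice (points: animals; bars: group means). Tars2, Wars2 and Yars2 at the left are raised in the 3 Atf6a-/- TM mice, Hars2 and Aars2 at the right are lowered.

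Set side by side, 15 pairs of a cytosolic and a mitochondrial gene for the same amino acid could be formed, with Fars2 counted against both Farsa and Farsb. The cytosolic gene had the larger difference in 13 of 15 pairs in Atf6a-/- mice and in 12 of 15 in wild-type mice. The widest gap was at leucine, where Lars differed by 2.55 and Lars2 by -0.58 in Atf6a-/- mice. The exceptions in Atf6a-/- mice were threonine, with 0.86 for Tars and 1.03 for Tars2, and tyrosine, with 0.81 for Yars and 0.83 for Yars2, gaps that were smaller than the standard errors of Tars and Yars. These gaps are descriptions and were not tested.

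**Figure D3:**
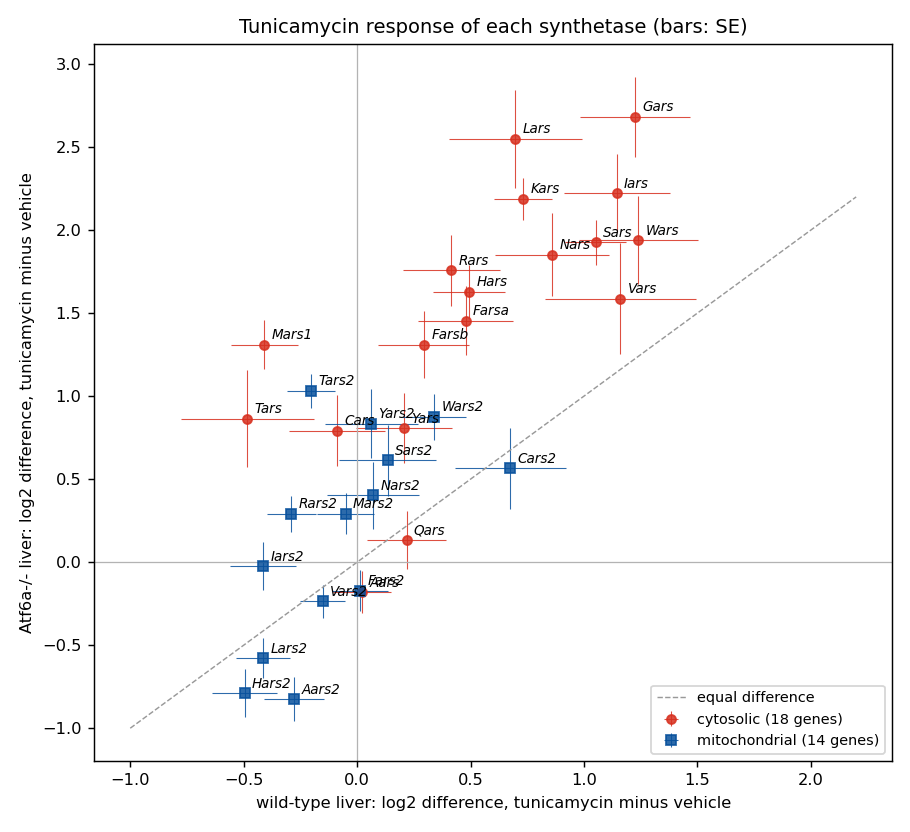
Log2 difference of each synthetase between TM and vehicle in wild-type (x axis) and Atf6a-/- mice (y axis), with bars for the standard error (18 cytosolic genes in red, 14 mitochondrial in blue). All cytosolic genes except Aars and Qars lie above the dashed line of equal difference, and Mars1, Tars and Cars combine a wild-type value under 0 with an Atf6a-/- value over 0.7.

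The genotypes were then compared directly. Under vehicle 0 of 18 cytosolic and 0 of 14 mitochondrial genes were called (limma), against 0.0% of all genes higher and 0.0055% lower in Atf6a-/- mice. No synthetase had an unadjusted limma p under 0.05 there, and by the methods' t-test 1 gene of each set had. The shares of all genes under that limit were not counted. After adjustment the t-test called 0 of all 45037 probe sets under vehicle, so its 0 for the synthetases is no result about them. The animals of the genotypes did not overlap for 0 cytosolic and 0 mitochondrial genes with Atf6a-/- higher (4.18% of all genes) and for 1 and 2 with Atf6a-/- lower (3.91%). The median differences under vehicle were -0.01 for the cytosolic and 0.01 for the mitochondrial set, and the widest was -0.28 ± 0.21 for Sars2.

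After TM, 13 of 18 cytosolic genes were higher in Atf6a-/- than in wild-type mice, against 11.3% of all genes, with a median difference of 1.05. They were Cars, Farsa, Farsb, Gars, Hars, Iars, Kars, Lars, Mars1, Nars, Rars, Sars and Tars. The methods' t-test with adjustment called 2 of the 18. The calls of Farsa and Cars were lost under 8 and 7 of 24 alternatives. The largest differences were those of Mars1 (3.37-fold, adjusted p = 8.555e-06), Lars (3.25-fold, adjusted p = 0.00138), Gars (2.84-fold, adjusted p = 0.000854) and Kars (2.51-fold, adjusted p = 2.192e-05, all limma). In 12 of the 18 the animals of the genotypes did not overlap and Atf6a-/- was higher, against 19.5% of all genes. Vars, Wars and Yars were not called with all animals, and without wild-type TM animal 2 they were, at 0.95, 0.97 and 0.92, which brought the count to 16.

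Of the 14 mitochondrial genes 2 were higher in Atf6a-/- mice after TM, a share close to the 11.3% of all genes. They were Tars2 (2.05-fold, adjusted p = 3.041e-05) and Wars2 (1.56-fold, adjusted p = 0.00641, limma). Without wild-type TM animal 2 Yars2 was called too (0.82). None was lower, where 8.45% of all genes were, and the median was 0.27. This median turned to -0.16 when arrays were shifted by the genes Btf3 and Ppia, under which 1 mitochondrial gene was higher and 3 were lower, while the cytosolic median stayed above 0 (0.62), with 9 higher and 1 lower, Aars. Under the same shift the Atf6a-/- response had 13 cytosolic genes higher and 1 lower, and 0 mitochondrial genes higher and 5 lower. Of all 45037 probe sets this shift called 1597 higher and 9601 lower for the genotypes after TM. For the Atf6a-/- response it called 2632 higher and 18082 lower. The mitochondrial genes lower under it were thus not set apart from the array as a whole.

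**Figure D4:**
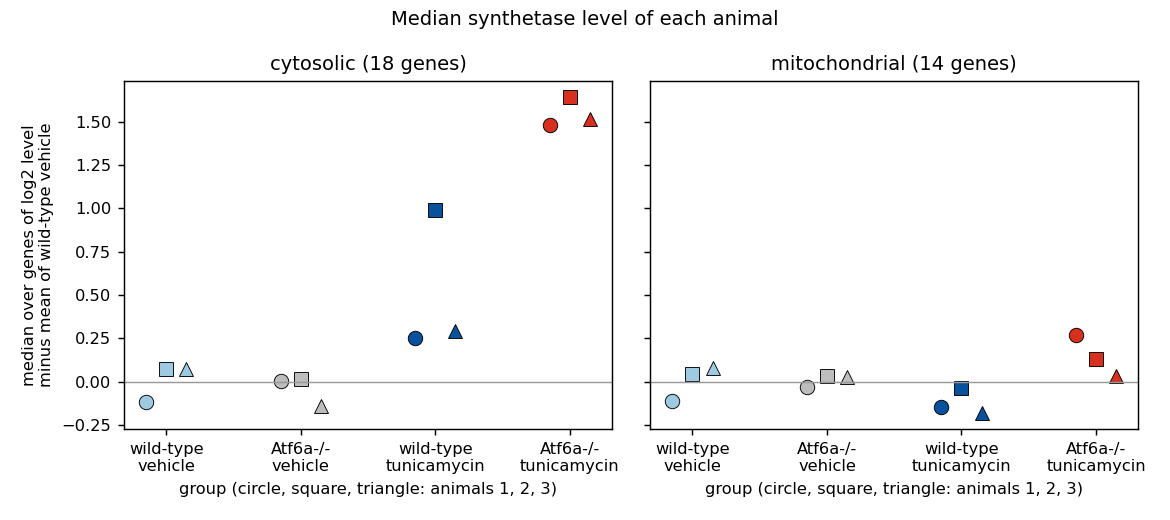
Median over the cytosolic (left) and mitochondrial (right) synthetases of the log2 level minus the wild-type vehicle mean, for each of 12 mice. The 3 Atf6a-/- TM mice lie at 1.48 to 1.64 in the cytosolic set, and wild-type TM animal 2 lies at 0.99 between them and its group mates.

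Animal by animal, the cytosolic median lay 0.25, 0.99 and 0.29 above the wild-type vehicle mean in the wild-type TM mice and 1.48, 1.64 and 1.52 above it in the Atf6a-/- TM mice. Each Atf6a-/- TM mouse had 16 of 18 cytosolic genes over 1.5-fold above the wild-type vehicle mean, and the wild-type TM mice had 4, 12 and 6. The mitochondrial median lay at -0.15, -0.04 and -0.18 in wild-type TM and at 0.27, 0.13 and 0.03 in Atf6a-/- TM mice. In the cytosolic set the genotypes were thus apart after TM in every animal, and in the mitochondrial set the gap between the nearest animals was under 0.1.

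Whether the response to TM itself differed between genotypes was tested as an interaction, the Atf6a-/- response minus the wild-type response, which uses all 4 groups. Of the cytosolic genes 8 of 18 had a larger response in Atf6a-/- mice, Farsb, Gars, Hars, Kars, Lars, Mars1, Rars and Sars, against 7.56% of all genes, and 0 had a smaller one, against 6.69%. Lars (1.85 ± 0.41, adjusted p = 0.0136) and Mars1 (1.72 ± 0.21, adjusted p = 0.000341, limma) had the largest. The call of Farsb (adjusted p = 0.0407) was lost under 10 of 22 alternatives. Of the mitochondrial genes only Tars2 was called (1.24 ± 0.15, adjusted p = 0.00031). Without wild-type TM animal 2 the cytosolic count was 16 in place of 8, adding Cars, Farsa, Iars, Nars, Tars, Vars, Wars and Yars, and the mitochondrial count was 3, adding Yars2 as a larger and Aars2 as a more negative response.

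Several genes had further probe sets. The 32 genes had 63 in all, and 21 genes had more than 1. Of 15 other cytosolic probe sets above the floor, 11 rose in Atf6a-/- mice and 0 fell, and of 9 other mitochondrial ones 3 rose and 0 fell. In a fit on all 23875 probe sets above the floor, 5263 rose and 4076 fell in Atf6a-/- mice. A further Wars probe set rose by 1.69 ± 0.42 in wild-type and 3.29 ± 0.42 in Atf6a-/- mice (limma, adjusted p = 0.0341 and 7.932e-05) and, unlike the representative one, was higher in Atf6a-/- than in wild-type mice after TM (1.55 ± 0.42, adjusted p = 0.0225). The other Hars2 probe set was at -0.45 ± 0.20 in Atf6a-/- mice and was not called (adjusted p = 0.123), and Aars2 had only 1 probe set.

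Other genes of tRNA charging were read in the same way, and those given beyond the 6 with the largest rises were chosen after their values were seen. Their calls stand against 15.2% of all genes higher and 12.8% lower in Atf6a-/- mice, and 3.45% and 3.86% in wild-type mice. Among synthetases outside the symbol pattern, Ears2, the mitochondrial glutamyl enzyme, read 6.57, 6.31 and 6.51 in wild-type vehicle, 7.25, 7.89 and 7.01 in wild-type TM, 6.46, 6.14 and 6.47 in Atf6a-/- vehicle and 8.34, 8.40 and 8.33 in Atf6a-/- TM mice. Its treated groups were apart from vehicle and from each other. Ears2 rose 1.90-fold in wild-type and 3.99-fold in Atf6a-/- mice (limma, adjusted p = 0.0108 and 6.44e-06). Eprs, the fused glutamyl and prolyl enzyme of the complex, rose 1.63-fold and 2.25-fold (adjusted p = 0.00226 and 6.626e-06). Tarsl2, a further threonyl enzyme found in the cytosol and nucleus, read 6.82, 6.93 and 6.75, then 6.73, 6.44 and 6.58, then 6.90, 6.88 and 6.89, then 5.57, 5.60 and 5.24. All 3 Atf6a-/- TM mice were more than 0.8 below every other mouse. Tarsl2 fell by 1.42 ± 0.11 in Atf6a-/- mice (adjusted p = 1.934e-06), so the 3 threonyl genes Tars, Tars2 and Tarsl2 differed in sign there. Pars2, the mitochondrial prolyl enzyme, was not called (0.18 ± 0.14 in Atf6a-/- mice), nor was Aarsd1, an editing protein for mischarged alanyl-tRNA.

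The 3 scaffold proteins of the complex, Aimp1, Aimp2 and Eef1e1, rose in Atf6a-/- mice, by 1.70 to 2.2, against 15.2% of all genes. In wild-type mice 2 of the 3 rose, against 3.45% of all genes. Aimp2 read 8.04, 8.00 and 7.91, then 8.73, 9.85 and 8.60, then 8.11, 8.06 and 7.88, then 10.11, 10.46 and 10.09, and rose 4.61-fold in Atf6a-/- mice (limma, adjusted p = 3.729e-05). Aimp1 read 9.25, 9.20 and 9.05, then 9.81, 10.24 and 9.71, then 9.13, 9.25 and 9.04, then 10.82, 10.94 and 10.77, and rose 1.68-fold in wild-type and 3.25-fold in Atf6a-/- mice (adjusted p = 0.00486 and 1.599e-06). Aimp1 and Aimp2 were thus apart between all treated and vehicle groups, and Eef1e1 was not. Eef1e1 read 7.76, 7.73 and 7.82, then 7.64, 8.41 and 7.77, then 7.80, 7.80 and 7.31, then 9.41, 9.61 and 9.31. Eef1e1 was close to vehicle in wild-type TM animals 1 and 3 and rose 3.50-fold in Atf6a-/- mice (adjusted p = 1.665e-05). All 3 scaffolds were higher in Atf6a-/- than in wild-type mice after TM, against 11.3% of all genes.

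Mitochondria make glutaminyl-tRNA by amidation, with the enzyme of Qrsl1, Gatb and Gatc. Gatc read 7.63, 7.60 and 7.66, then 7.70, 7.96 and 7.64, then 7.79, 7.77 and 7.64, then 9.38, 9.16 and 9.59, and rose 3.12-fold in Atf6a-/- mice (limma, adjusted p = 1.026e-06). Qrsl1 rose too (0.87 ± 0.24) and Gatb fell (-0.61 ± 0.12), so the subunits of this enzyme did not move together. Of 5 elongation factor genes, Eef1b2 rose in both genotypes (0.87 and 1.5), Eef1d was called in wild-type (0.65) and Tsfm in Atf6a-/- mice (0.62). In Atf6a-/- mice Eef1d missed only the fold limit (1.42-fold, limma, adjusted p = 0.0031). For Eef1b2, Eef1d and Tsfm the difference between the responses of the genotypes was not called (limma, adjusted p = 0.0716, 0.683 and 0.0582). Of 5 genes for tRNA ends, export and proofreading, Xpot, the exporter of tRNA from the nucleus, rose 2.02-fold and 3.01-fold in wild-type and Atf6a-/- mice, and Trnt1, which adds the CCA end, rose in Atf6a-/- mice (1.00 ± 0.21). Sepsecs, which makes selenocysteinyl-tRNA, fell by 0.86 ± 0.15 in Atf6a-/- mice. Calls in these short lists stand against 15.2% of all genes higher and 12.8% lower in Atf6a-/- mice. In wild-type mice the shares were 3.45% and 3.86%.

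**Figure D5:**
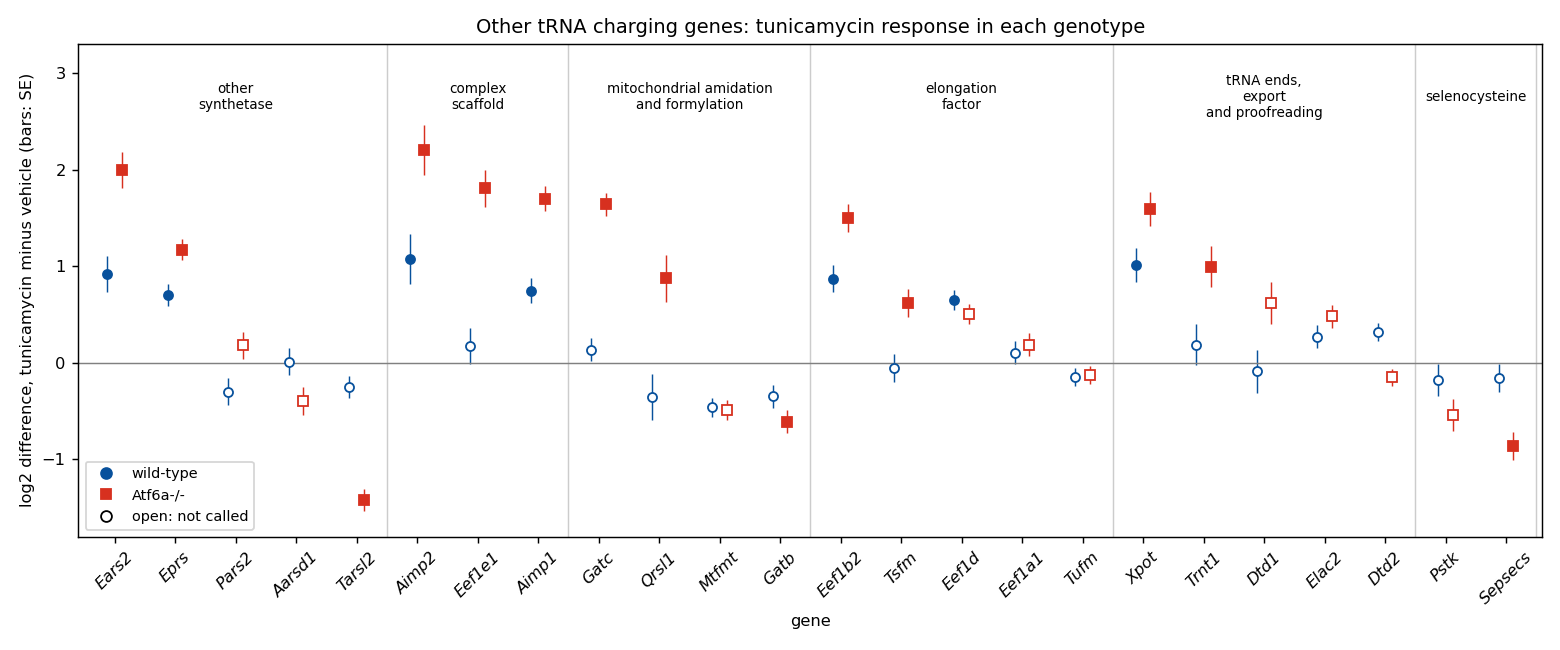
Log2 difference between TM and vehicle for 24 other genes of tRNA charging in wild-type (blue circles) and Atf6a-/- mice (red squares), with bars for the standard error; filled points were called. The 3 complex scaffolds lie at 1.70 to 2.2 in Atf6a-/- mice, and Tarsl2 at -1.42 is the lowest.

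Markers of liver cell types moved in the same mice. Of 13 measured hepatocyte markers, 10 fell in Atf6a-/- mice after TM, and their log2 summed level was 16.4 to 16.9 in Atf6a-/- TM against 17.3 to 17.7 in wild-type TM and 17.7 to 17.9 in Atf6a-/- vehicle mice. Of 5 neutrophil markers, S100a8 and S100a9 rose in Atf6a-/- mice (4.67 and 3.73) and S100a8 in wild-type mice (2.31), with a summed level of 9.17 to 11.3 against 8.18 to 9.07 in wild-type TM and 6.97 to 7.36 in Atf6a-/- vehicle mice, while 2 of the 5 lay under the floor in each group. Of 8 Kupffer cell and macrophage markers, Marco and Cd68 rose and Adgre1, Clec4f, Vsig4 and Csf1r fell in Atf6a-/- mice. In Atf6a-/- mice 2 of 7 endothelial markers fell (Stab2 and Clec4g), as did 1 of 7 stellate cell markers (Col1a2) and 1 of 3 red cell markers (Alas2), and none of 5 lymphocyte or 4 cholangiocyte markers was called. These counts stand against 15.2% of all genes higher and 12.8% lower. In wild-type mice Apoa1 and Apoc3 of the hepatocyte list and Clec4f, Vsig4 and Csf1r of the Kupffer cell list fell and Marco rose, against 3.86% lower and 3.45% higher, and no endothelial, stellate, red cell, lymphocyte or cholangiocyte marker was called. The difference between 3′ and 5′ actin control probe sets, a sign of RNA integrity, averaged 0.93 in Atf6a-/- TM mice and 1.14 to 1.17 in the other groups, and the hybridisation spike-ins averaged 8.80 against 9.0 to 9.35. The part of these shifts in the synthetase differences was not tested.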

How the data were processed

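The authors deposited log2 expression values for Affymetrix arrays of liver RNA, which the submitters' processing notes tie to RMA with the affy and limma packages, with versions not given in the sources used here. Background correction and normalization across arrays were thus done before deposit. Of 45101 features, 64 controls were left out and 45037 probe sets were tested. Platform annotation gave 1 symbol to 34945 of these and several to 932, which named no gene here.

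The 4 groups were fitted together with limma 3.58.1 in R 4.3.3, without covariates, and two-sided p-values were adjusted over all probe sets of a contrast by Benjamini and Hochberg. A call needed an adjusted p under 0.05 and over 1.5-fold. The code was tested on simulated data. Background shares count 1 probe set per gene. Replicates are separate animals, and the number of arrays, 3 a group, limits the precision. The members and lists were chosen with earlier results of these data known. By rule, each animal's level is given for up to 12 cytosolic and 8 mitochondrial genes with the largest called differences, and for the 2 of each set whose largest difference over the 5 contrasts was smallest, with Atf6 and up to 6 companion genes. Alternatives were other normalizations, shifts by spike-ins or by Btf3 and Ppia (Ppia read from a probe set with several symbols), the methods' t-test, fits on the 2 groups compared, means over probe sets, a floor on brightness, no minimum fold, an intensity trend, the animal number as a block, and each animal left out. Promoters are from RefSeq.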

Additional observations from a re-analysis of the deposited data

Results flagged for a closer look

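The response to TM differed between wild-type and Atf6a-/- livers, by the interaction test in limma (adjusted p under 0.05 and over 1.5-fold), for 9 synthetases. On the log2 scale the Atf6a-/- response exceeded the wild-type response by 1.85 for Lars, 1.72 for Mars1, 1.46 for Gars, 1.46 for Kars, 1.34 for Rars, 1.24 for Tars2, 1.13 for Hars, 1.02 for Farsb and 0.87 for Sars. Gars, Hars, Kars, Lars, Mars1, Rars and Tars2 were called under every alternative that tested the interaction. Farsb lost its call under 10 of 22 alternatives and Sars under 1.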

How the results depend on the processing

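With 3 animals a group, leaving out 1 animal at a time moved the counts of called cytosolic genes from 4 to 7 for the wild-type response (5 with all animals), 14 to 16 for the Atf6a-/- response (16), 10 to 16 for the genotypes after TM (13) and 7 to 16 for the interaction (8). The mitochondrial counts moved from 0 to 1 (0), 5 to 8 (5), 1 to 3 (2) and 1 to 3 (1), and both counts under vehicle stayed at 0. The interaction gave 16 cytosolic and 3 mitochondrial genes without wild-type TM animal 2, and 2 mitochondrial genes without wild-type vehicle animal 1 or 2, wild-type TM animal 1, Atf6a-/- vehicle animal 1 or Atf6a-/- TM animal 3. The mitochondrial Atf6a-/- response gave 8 calls without Atf6a-/- TM animal 3, the genotypes after TM gave 1 without Atf6a-/- TM animal 1, and the wild-type response gave 1 without wild-type vehicle animal 1. The cause was not tested.

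The methods' t-test with Benjamini-Hochberg adjustment called 0 cytosolic genes for the wild-type response, 2 for the genotypes after TM, and 3 and 1 mitochondrial genes for the Atf6a-/- response and the genotypes after TM. Among all 45037 probe sets it called 1 for the wild-type response and 4012 higher and 2969 lower for the Atf6a-/- response. For the genotypes after TM it called 606 higher and 647 lower. At the methods' unadjusted threshold and fold it called 5, 16 and 11 cytosolic genes for the wild-type response, the Atf6a-/- response and the genotypes after TM, and 0, 5 and 2 mitochondrial genes. The shares of all genes at that unadjusted threshold were not counted. A fit on the 2 groups compared called 2 cytosolic genes for the wild-type response. Without a minimum fold, or with the mean over probe sets, the mitochondrial interaction gave 2.

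The shift by hybridisation spike-ins moved the median of all probe sets by 0.34 for the wild-type response, 0.47 for the Atf6a-/- response and 0.21 for the genotypes after TM. It gave 12 cytosolic and 2 mitochondrial calls for the wild-type response, 8 (8 higher and 0 lower) mitochondrial calls for the Atf6a-/- response, 4 for the genotypes after TM and 2 for the interaction. Of all 45037 probe sets it called 4810 higher and 601 lower for the wild-type response, and 14367 higher and 2377 lower for the Atf6a-/- response. After TM it called 5921 higher and 1987 lower between the genotypes, and for the interaction 2639 higher and 1546 lower. Calls with a positive difference were thus added over the array as well as among the synthetases, and the added shares were not compared. The set medians became 0.84 and 0.25 (cytosolic and mitochondrial, wild-type response), 2.09 and 0.77 (Atf6a-/- response), and, for the mitochondrial set, 0.48 after TM and 0.47 for the interaction. The shift by Btf3 and Ppia moved the median of all probe sets by -0.09, -0.53 and -0.43, and gave 4 (1 higher and 3 lower) mitochondrial calls for the genotypes after TM and 2 for the interaction. Of all 45037 probe sets it called 1597 higher and 9601 lower for the genotypes after TM, and 793 higher and 5152 lower for the interaction. The cytosolic medians became 1.09 for the Atf6a-/- response, 0.62 after TM and 0.56 for the interaction, and the mitochondrial medians -0.22, -0.16 and -0.10.

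The animal numbers name separate mice, and for that reason the samples were not treated as paired. Of 18 same-number pairs 10 had deviations that correlated over 0.1 (range -0.215 to 0.443), which does not show the numbers to be without effect. With the number as a replicate block, 7, 16, 14, 0 and 11 cytosolic and 0, 5, 2, 0 and 2 mitochondrial genes were called for the wild-type response, the Atf6a-/- response, the genotypes after TM, the genotypes under vehicle and the interaction. Of 12 samples, 6 correlated best with their own number.

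In Atf6a-/- mice 12 cytosolic genes kept their call under every alternative: Farsb, Gars, Hars, Iars, Kars, Lars, Mars1, Nars, Rars, Sars, Vars and Wars. For the genotypes after TM these were Kars, Mars1 and Tars2, and for the wild-type response none. The t-test called 0 synthetases for that response and only 1 of all 45037 probe sets. Kars and Sars lost their wild-type call by the t-test alone. Gars, Iars and Wars lost it also in the fit on the 2 wild-type groups, and Wars also without wild-type vehicle animal 1. Mars2, under the floor of 4.71, limits what can be said of its level.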
